A study of Ovis aries with 6 samples.

Results

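The genes described here encode calcineurin, the transcription factors that it activates and the proteins that bind and restrain it. They are PPP3CA, PPP3CB and PPP3R1 (calcineurin subunits), NFATC1, NFATC2, NFATC3 and NFATC4 (nuclear factors of activated T cells), and RCAN1, RCAN2 and RCAN3 (regulators of calcineurin). They were chosen by gene symbol and make up 10 of the 23144 genes in the count table. Of the 10 symbols, 9 are row names of that table. RCAN1 is listed there as LOC443255, which is described as Calcipressin-1 and whose number is the NCBI gene ID of RCAN1 in the RefSeq table for sheep. Messenger RNA of the longissimus dorsi, the long muscle beside the spine, was sequenced from 3 Small Tail Han (STH) ewes and 3 ewes of the Qianhua Mutton Merino (QHMM), each animal giving 1 library. QHMM was bred for meat and wool from South Africa Mutton Merino males and Chinese Northeast Fine-wool females, and STH is a traditional local breed. All animals were females aged 1 year, kept on the same farm under natural light with free access to food and water until a fast before slaughter, and the labels name no treatment. The comparison is STH vs. QHMM, so that a negative log2 fold change stands for less RNA in STH. With 3 animals of each breed from 1 farm, breed cannot be told apart from anything else that differed between these animals.

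Calcineurin is a protein phosphatase that works only when calcium and calmodulin are bound. A catalytic A subunit (the product of PPP3CA, PPP3CB or PPP3CC) pairs with a calcium-binding B subunit (PPP3R1, or PPP3R2 in testis). In muscle, prolonged calcium signals from slow motor nerve activity switch calcineurin on. It then removes phosphates from NFATC1 to NFATC4, which enter the nucleus and, with MEF2 factors, help to keep slow-fibre genes active. Kinases of the GSK3, DYRK and casein kinase families put the phosphates back. The RCAN proteins bind calcineurin and limit its activity, and one form of RCAN1 is itself an NFAT target.

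The 6 libraries held from 10982191 to 14334544 reads on genes. TMM factors, which correct for differences in library composition, lay between 0.852 and 1.20, and normalized counts are given at the median library total. The tissue was checked against 7 skeletal muscle markers. ACTA1, CKM, TTN, NEB, DES and MYBPC1 were abundant in every library, and their summed RPKM was 82370 to 96258 in QHMM and 65823 to 107193 in STH, while TNNT3 was listed at 0 in every library. In bulk muscle, fewer cells of a type and less RNA per cell cannot be told apart. With edgeR's quasi-likelihood F test, a gene was called when its FDR was below 0.05 and the breeds differed by more than 1.5-fold, which was met by 432 of 12506 tested genes, 203 up and 229 down in STH. All 10 calcineurin, NFAT and RCAN genes passed the filter for low counts.

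None of the 10 genes was called between the breeds in the main test. The count was 0 of 10 with edgeR, where 3.45% of all tested genes were called, 1.62% as higher and 1.83% as lower in STH. DESeq2 called 2 of the 10, PPP3CB and PPP3R1, both lower in STH, where it called 7.80% of all tested genes and 4.44% as lower in STH. The paper that reported these libraries used the EBSeq program with the same thresholds and listed PPP3CB as lower in STH. In its network of differentially expressed genes it also placed NFATC1, as a gene activated by PPP3CB. An unadjusted p-value below 0.05 was found for 5 of the 10 with edgeR, against 19.2% of all genes. These were PPP3CA, PPP3CB, PPP3R1 and NFATC1 with lower values in STH (9.72% of all genes) and RCAN1 with higher values. In the 4 lower genes, every STH library lay below every QHMM library, which held for 11.7% of all tested genes. In the other 6 genes the breeds overlapped. A breed that lay apart from the other in either direction was seen in 24.7% of tested genes. The log2 fold change was negative in 8 of the 10 genes, against 48.2% of all tested genes. Its median was -0.46 over the 10 genes and 0.023 over all tested genes.

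**Figure D1:**
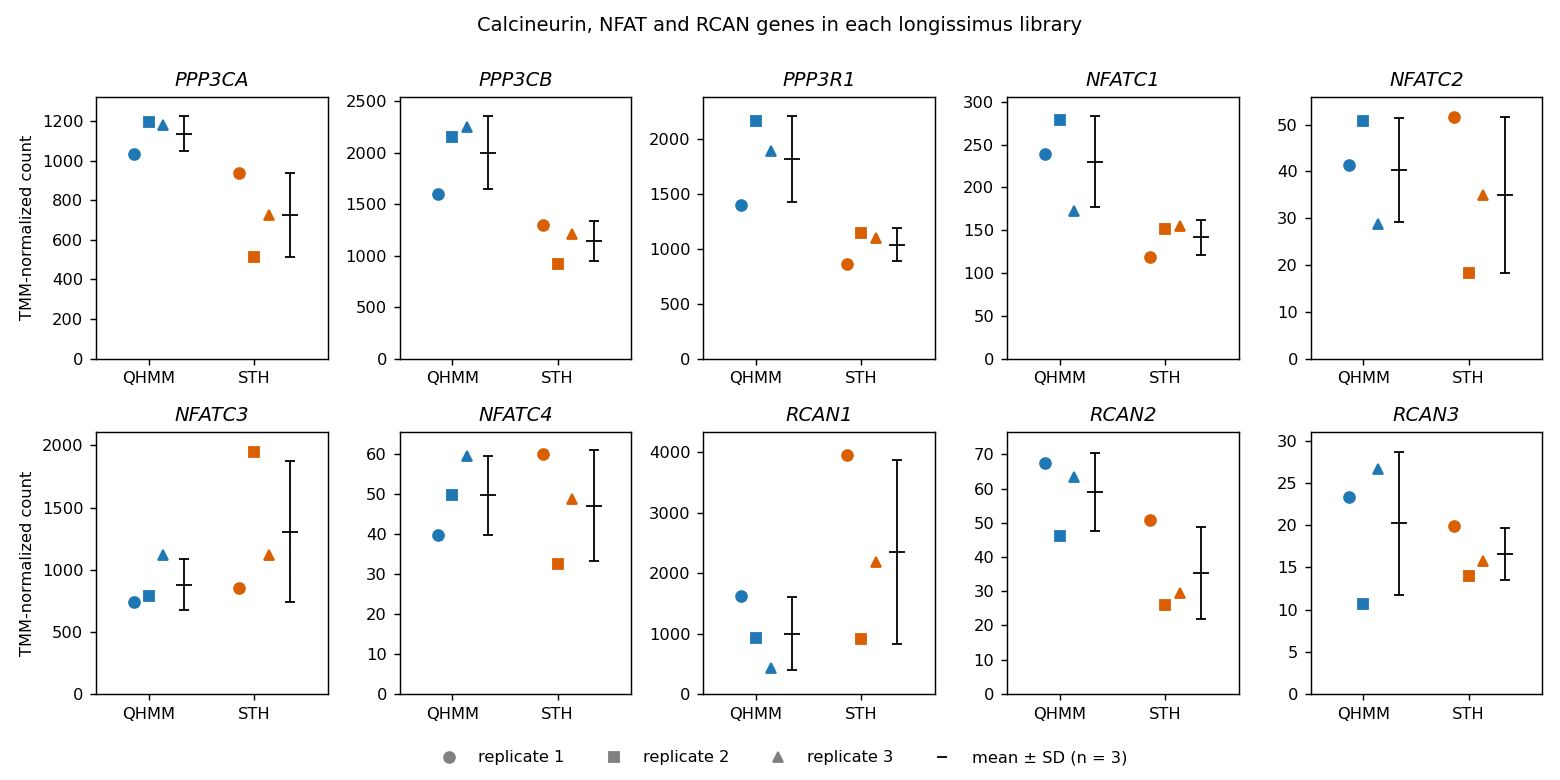
TMM-normalized counts (vertical axes from 0) of the 10 genes in 3 QHMM (blue) and 3 STH (orange) libraries, with 1 symbol per replicate number and the mean ± SD in black. The STH libraries lie below all QHMM libraries for PPP3CA, PPP3CB, PPP3R1 and NFATC1, and the breeds overlap for the other 6 genes.

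The levels of the 10 genes were first set side by side per gene length, as RPKM, in which reads are scaled by gene length and by the library total on genes. The gene lengths implied by the counts and RPKM values ran from 883 bases for RCAN2 to 4357 for NFATC3. RCAN1 had the highest mean, 61.2 ± 54.4 RPKM (SD over 6 libraries). PPP3R1 followed with 41.7 ± 12.3, PPP3CB with 36.8 ± 11.7, NFATC3 with 19.6 ± 9.40 and PPP3CA with 17.8 ± 5.18. These 5 genes formed an upper group, in which each gene overlapped its neighbour in the order. RCAN1 exceeded PPP3R1 in only 3 of 6 libraries, and PPP3R1 exceeded PPP3CB in 5 of 6. NFATC3 had a higher mean than PPP3CA but exceeded it in only 2 of 6 libraries, STH replicates 2 (37.7 against 10.9) and 3 (16.8 against 11.9). The first clear step came after PPP3CA, which was higher than NFATC1 in 6 of 6 libraries with no overlap, by 1.997 on the log2 scale (SD 0.46). NFATC1 (4.40 ± 1.13 RPKM) and RCAN2 (4.15 ± 1.67) could not be ranked, since each was higher in 3 of 6 libraries. A further gap lay between RCAN2 and NFATC4 (1.45 ± 0.42). NFATC4 was higher than NFATC2 (1.16 ± 0.45) in only 4 of 6 libraries, with overlapping ranges. RCAN3 (0.54 ± 0.20) was below NFATC2 in 6 of 6 libraries, although their ranges overlapped.

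**Figure D2:**
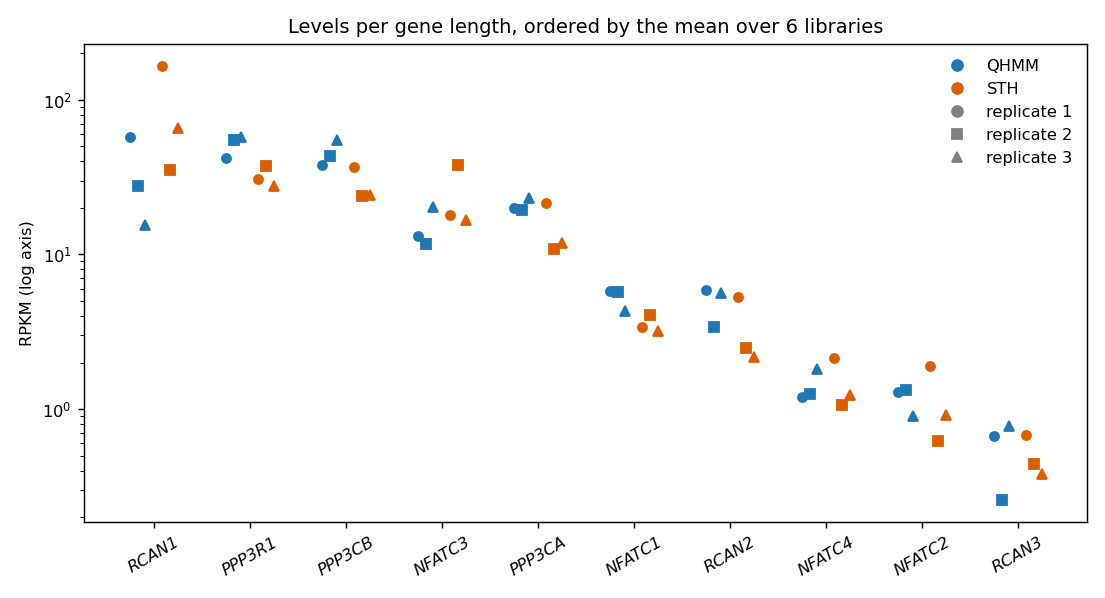
RPKM on a log axis for each gene, ordered by the mean over the 6 libraries, with QHMM in blue, STH in orange and 1 symbol per replicate number. The values run from 0.257 for RCAN3 in QHMM replicate 2 to 166 for RCAN1 in STH replicate 1, and the upper 5 genes are separated from NFATC1 by a gap.

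The 3 calcineurin subunits had lower values in STH, and none passed the FDR threshold with edgeR. PPP3CB encodes the beta form of the catalytic subunit, which carries the active site. Replicates 1 to 3 of QHMM stood at 1597, 2152 and 2251 normalized counts, and those of STH at 1294, 922 and 1209. The highest STH library thus lay below the lowest QHMM library. The mean of 1999.8 ± 353 in QHMM (SD, n = 3) was 1.75 times the 1142 ± 195 of STH (n = 3). Its log2 fold change was -0.81 (SE 0.24, 95% interval -1.33 to -0.28, FDR = 0.0913), and PPP3CB ranked 831 of all tested genes by p-value. In DESeq2 the adjusted p was 0.0271, and over the 17 alternatives it lay between 0.0271 and 0.266.

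PPP3R1 encodes the regulatory B subunit, without which the catalytic subunit is not active. It had 1395, 2162 and 1886 normalized counts in QHMM and 862, 1139 and 1099 in STH. QHMM replicate 1, the lowest of its breed, was still above all STH libraries. The log2 fold change was -0.81 (SE 0.24, 95% interval -1.34 to -0.28, FDR = 0.0929), from 1814 ± 388 in QHMM to 1034 ± 149.6 in STH. The adjusted p was 0.0304 with DESeq2 and 0.0304 to 0.261 over the alternatives.

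PPP3CA encodes the alpha form of the catalytic subunit. Its normalized counts were 1033, 1195 and 1179 in QHMM, against 939, 515 and 727 in STH. The breeds were set apart only by the gap between QHMM replicate 1 and STH replicate 1, and with scaling by library totals alone they overlapped. In RPKM, which carry no composition factor, STH replicate 1 (21.5) exceeded QHMM replicates 1 (19.99) and 2 (19.5). The log2 fold change was -0.64 (SE 0.25, 95% interval -1.19 to -0.10, FDR = 0.186). Without STH replicate 1 it was -0.89 (FDR = 0.0888), and without STH replicate 2 it was -0.46 (FDR = 0.457).

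**Figure D3:**
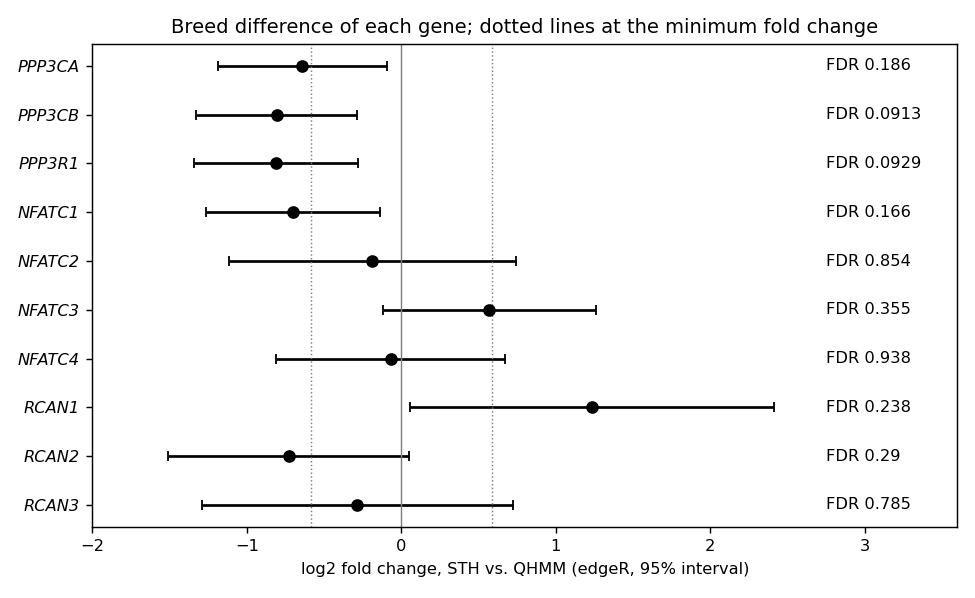
Log2 fold change of each gene in STH vs. QHMM from edgeR with its 95% interval (horizontal axis), dotted lines at the minimum fold change of a call, and its FDR at the right. The intervals of PPP3CA, PPP3CB, PPP3R1 and NFATC1 lie below 0 and that of RCAN1 above it, but no FDR is below 0.05, the smallest being 0.0913 for PPP3CB.

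Of the 4 NFAT genes, which encode the factors that calcineurin dephosphorylates, NFATC1 was the one in which the breeds did not overlap. NFATC1, linked to the slow-fibre programme, had 239, 279 and 173 normalized counts in QHMM and 118, 152 and 155 in STH. QHMM replicate 3 lay nearer to STH than the other QHMM libraries did. The log2 fold change of NFATC1 was -0.70 (SE 0.26, 95% interval -1.27 to -0.14, FDR = 0.166), and its FDR lay between 0.140 and 0.415 over the alternatives.

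NFATC3, the most abundant NFAT gene in RPKM, had 741, 785 and 1114 normalized counts in QHMM and 856, 1944 and 1118 in STH. STH replicate 2 stood alone at the top and the other STH libraries were within or just above the QHMM range. Its log2 fold change was 0.57 (SE 0.31, 95% interval -0.12 to 1.26, FDR = 0.355), and without STH replicate 2 it was 0.15 (FDR = 0.891). NFATC3 made up 58.6% to 86.8% of the summed RPKM of the 4 NFAT genes in the 6 libraries. The share of NFATC1 was 27.1%, 28.5% and 15.8% in QHMM and 13.4%, 9.29% and 14.4% in STH.

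NFATC2, known from T cells and from muscle fibre growth, had few reads. Its normalized counts were 41.4, 50.8 and 28.7 in QHMM, against 51.6, 18.3 and 35.0 in STH, so that the STH libraries spanned all of the QHMM range. The log2 fold change of -0.19 had a 95% interval from -1.12 to 0.74 (SE 0.42, FDR = 0.854). At the mean raw count of NFATC2, counting error alone gives a CV of 16.3%, beside a CV between animals of 27.5% in QHMM and 47.6% in STH.

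NFATC4 was similarly low, with 39.6, 49.6 and 59.4 normalized counts in QHMM and 59.9, 32.3 and 48.6 in STH. The breeds overlapped fully, and the log2 fold change was -0.07 (SE 0.34, 95% interval -0.81 to 0.67, FDR = 0.938). The interval includes the value of NFATC1. Counting error at the mean raw count of NFATC4 is a CV of 14.4%, beside a CV between animals of 19.96% in QHMM and 29.6% in STH.

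Among the RCAN genes, RCAN1 varied more than any other of the 10 genes. It had 1628, 934 and 430.1 normalized counts in QHMM and 3954, 914 and 2179.7 in STH, a 9.19-fold range over the 6 libraries. For the other 9 genes, the highest library was 1.85 to 2.82 times the lowest. STH replicates 1 and 3 exceeded every QHMM library, while STH replicate 2 lay below QHMM replicates 1 and 2. The spread of RCAN1 within breeds, as the SD of log2 CPM, was 1.01, at percentile 97.2 of all tested genes. Its depth was the highest of the 10 genes, with 10546 reads in all and a counting CV of 2.39% at its mean raw count, and the CV between animals was 60.3% in QHMM and 65.0% in STH. RCAN1 averaged 997 ± 602 in QHMM (SD, n = 3) and 2349 ± 1527 in STH (n = 3), and its log2 fold change was 1.24 (SE 0.53, 95% interval 0.06 to 2.42, FDR = 0.238). Without STH replicate 1 the value was 0.62 (FDR = 0.537) and without QHMM replicate 1 it was 1.76 (FDR = 0.167).

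RCAN2 had 67.5, 46.0 and 63.5 normalized counts in QHMM and 50.8, 25.9 and 29.4 in STH. QHMM replicate 2 and STH replicate 1 crossed, and the other 4 libraries were apart by breed. For RCAN2 the log2 fold change was -0.73 (SE 0.35, 95% interval -1.51 to 0.05, FDR = 0.290), and without STH replicate 1 it was -1.11 (FDR = 0.136).

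RCAN3 was the least abundant of the 10 genes, with 9 to 26 raw reads per library. Its normalized counts were 23.4, 10.6 and 26.6 in QHMM, against 19.98, 14.01 and 15.8 in STH, with the lowest and the highest library both in QHMM. RCAN3 had a fitted log2 fold change of -0.29 (SE 0.46, 95% interval -1.29 to 0.72, FDR = 0.785). Counting error at its mean raw count is a CV of 23.1%, the largest of the 10 genes. RCAN1 took 70.6% to 96.5% of the summed RPKM of the RCAN genes in each library.

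Some libraries were extreme for several of the 10 genes. STH replicate 2 had the lowest normalized count of all 6 libraries for 5 of the 10 genes (PPP3CA, PPP3CB, NFATC2, NFATC4 and RCAN2) and the highest for NFATC3. STH replicate 1 was the highest of its breed for 7 genes. STH replicate 3 was neither the highest nor the lowest of the 6 libraries for any of the 10 genes.

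Ratios within a library do not depend on scaling between libraries, and 5 of them were compared between the breeds with a two-sided exact permutation test, which for 3 animals against 3 cannot give a p below 0.10. The first sets the catalytic isoforms PPP3CA and PPP3CB against each other. PPP3CC, the other catalytic gene, is left out of all these ratios. PPP3CA was 0.525, 0.451 and 0.425 times PPP3CB in QHMM and 0.590, 0.454 and 0.488 times in STH. The breeds overlapped, with a difference in the mean log2 ratio of 0.12 (exact p = 0.50, adjusted p = 0.625). PPP3R1 was 0.723, 0.873 and 0.742 times the sum of PPP3CA and PPP3CB in QHMM and 0.529, 1.07 and 0.771 times in STH. The difference in log2 was -0.033 (exact p = 1, adjusted p = 1), and the SD was 0.51 in STH beside 0.15 in QHMM.

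Set against the enzyme, the summed RCAN RPKM was 1.11, 0.503 and 0.282 times that of PPP3CA and PPP3CB in QHMM and 2.96, 1.10 and 1.87 times in STH. QHMM replicate 1 slightly exceeded STH replicate 2, so that the breeds overlapped. The difference in log2 was 1.76 (exact p = 0.20, adjusted p = 0.333). With raw counts in place of RPKM, this difference was 1.85 (exact p = 0.10, adjusted p = 0.167) and the breeds did not overlap. The ratio of RCAN1 to RCAN2 was 9.73, 8.19 and 2.74 in QHMM and 31.4, 14.3 and 29.96 in STH. All STH libraries lay above all QHMM libraries, with a log2 difference of 1.98 (exact p = 0.10, the smallest possible, adjusted p = 0.25). The ratio of NFATC1 to NFATC3 was 0.441, 0.486 and 0.213 in QHMM and 0.189, 0.107 and 0.190 in STH. It was lower in all STH libraries, with a log2 difference of -1.19 (exact p = 0.10, adjusted p = 0.25), and QHMM replicate 3 was close to STH replicates 1 and 3.

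**Figure D4:**
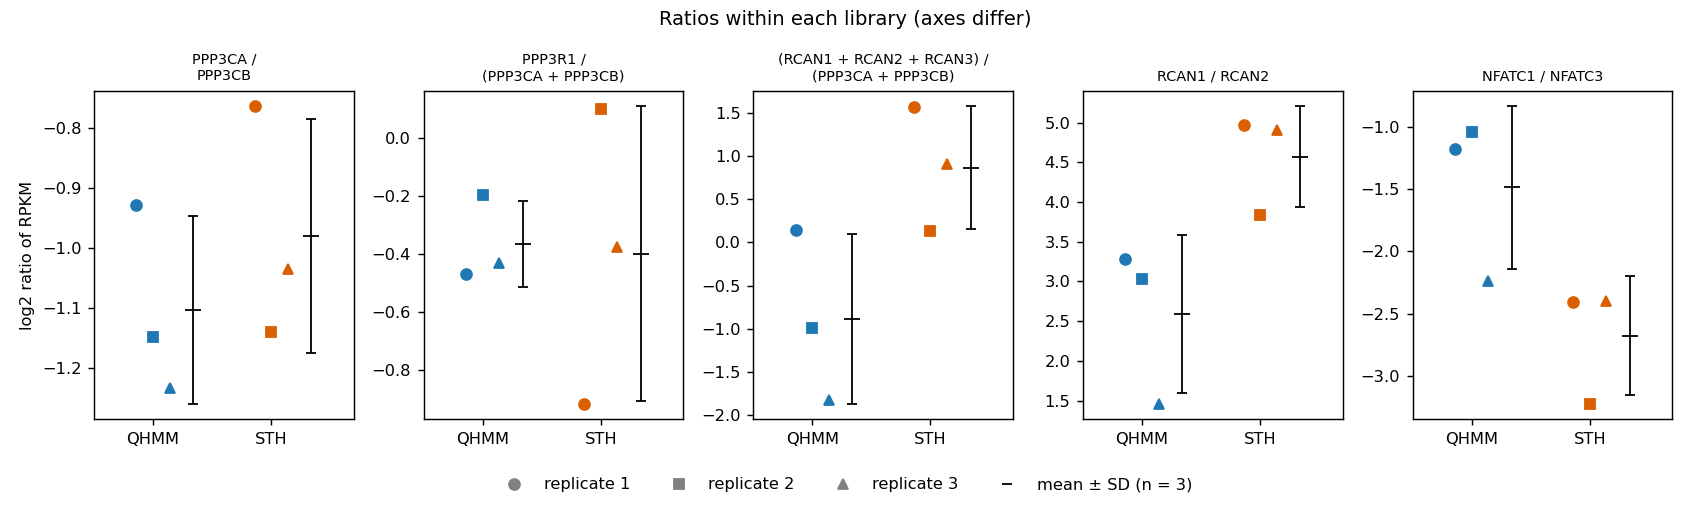
Log2 ratios of RPKM within each library (vertical axes, which differ between panels) for 5 pairs or sums of genes, in 3 QHMM (blue) and 3 STH (orange) libraries with the mean ± SD in black. The breeds do not overlap for RCAN1/RCAN2 and NFATC1/NFATC3 and overlap for the other 3 ratios.

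The profiles over the 6 libraries were compared by the root mean square (RMS) difference of log2 CPM after each gene was centred on its mean. The distance is a description, since all genes share the same libraries. Among 12505 other genes, the nearest to PPP3CB were ARHGEF37 (RMS difference 0.071), HTRA1 (0.093), which encodes a secreted protease, and DYRK2 (0.1004), one of the kinases that phosphorylate NFAT proteins. PPP3CA was at rank 46 from PPP3CB (0.157), and PPP3R1 at rank 461 (0.268). Nearest to PPP3R1 were PCCB (0.060), a mitochondrial carboxylase subunit, IPO13 (0.092), a nuclear transport receptor, and NDUFA6 (0.095), a subunit of the respiratory chain. NFATC1 was at rank 311 from PPP3R1 and PPP3CB at rank 320. RCAN1 had no close neighbour. Its nearest genes were the complement gene C7 (0.442), the NF-kappaB inhibitor gene NFKBIA (0.444) and PHLDA1 (0.457), and PPP3R1 was far from it at rank 11622 (1.41).

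The rest of the pathway was read from 5 lists with 35 genes, of which 33 were tested. Of these 33, 1 gene was called, DYRK1B, a share close to the 3.45% of all tested genes, and 11 had an unadjusted p below 0.05, against 19.2% of all tested genes. The log2 fold changes were negative in 19 of the 33 and positive in 14, with a median of -0.036. DYRK1B encodes a kinase abundant in muscle that can phosphorylate NFAT. Its normalized counts were 1327, 1552 and 1385 in QHMM, against 464, 647 and 892 in STH, with all STH libraries below all QHMM libraries. DYRK1B fell in STH by a log2 fold change of -1.09 (SE 0.26, FDR = 0.0482). DYRK1B lost its call, with an FDR of 0.0856 to 0.138, in each of the 5 fits without QHMM replicate 1, 2 or 3 or STH replicate 1 or 2, and kept it without STH replicate 3 (FDR = 0.0318).

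In the list of NFAT kinases and anchoring proteins, the other 12 genes were not called, and 9 of the 13 had positive values. An unadjusted p below 0.05 was found for 6 of the 13, DYRK1B among them, against 19.2% of all tested genes. CSNK1D, a casein kinase, had the largest positive value, 1.17 (SE 0.29, FDR = 0.0571). DYRK1A had 0.63 (SE 0.22, FDR = 0.158) and CSNK1E had 0.52 (SE 0.23, FDR = 0.254). On the negative side, DYRK2 had -0.72 (SE 0.23, FDR = 0.117). HOMER1, listed as HOMER, had -1.32 (SE 0.37, FDR = 0.0823). CSNK1D, DYRK1A, CSNK1E, HOMER1 and the genes named in the next paragraph were picked after their values were seen.

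For PPP3CC, the third catalytic gene, the log2 fold change was -0.36 (SE 0.24, FDR = 0.451). Its share of the catalytic RPKM was 23.0%, 24.2% and 26.5% in QHMM and 23.0%, 37.6% and 31.5% in STH. The share of PPP3CB was 50.5%, 52.2% and 51.5% in QHMM and 48.5%, 42.9% and 46.0% in STH, lower in every STH library. These shares were not tested. PPP3R2 had 0 reads in 5 libraries and 5 in STH replicate 3 and was not tested. Of the calmodulin genes, CALM3 had -0.87 (SE 0.34, FDR = 0.193) and CALM2 had -0.51 (FDR = 0.284). Among 9 tested calcineurin-binding proteins, 0 were called, against 3.45% of all tested genes, and 4 had an unadjusted p below 0.05, against 19.2%. These were MYOZ3, MYOZ2 and CHP1 with negative values and PPIA with a positive one. MYOZ3, which encodes a calsarcin that holds calcineurin at the Z-disc, had -1.71 (SE 0.45, FDR = 0.0683), and the slow-fibre calsarcin gene MYOZ2 had -1.23 (FDR = 0.173). MYOZ1, a calsarcin gene of fast fibres, had 0.26 (FDR = 0.689). MYOZ3, with the lowest value of these calsarcin genes, was on neither the slow-fibre nor the fast-fibre list. CHP1, a calcineurin B homologue, had -0.55 (SE 0.23, FDR = 0.231), and PPIA, the cyclophilin that binds calcineurin together with cyclosporin, had 0.58 (SE 0.24, FDR = 0.221). The MEF2, CRTC and TFEB genes, whose proteins are other calcineurin substrates or partners, had 0 of 7 called, against 3.45% of all tested genes. Their values ran from -0.46 in MEF2A to 0.64 in CRTC2.

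**Figure D5:**
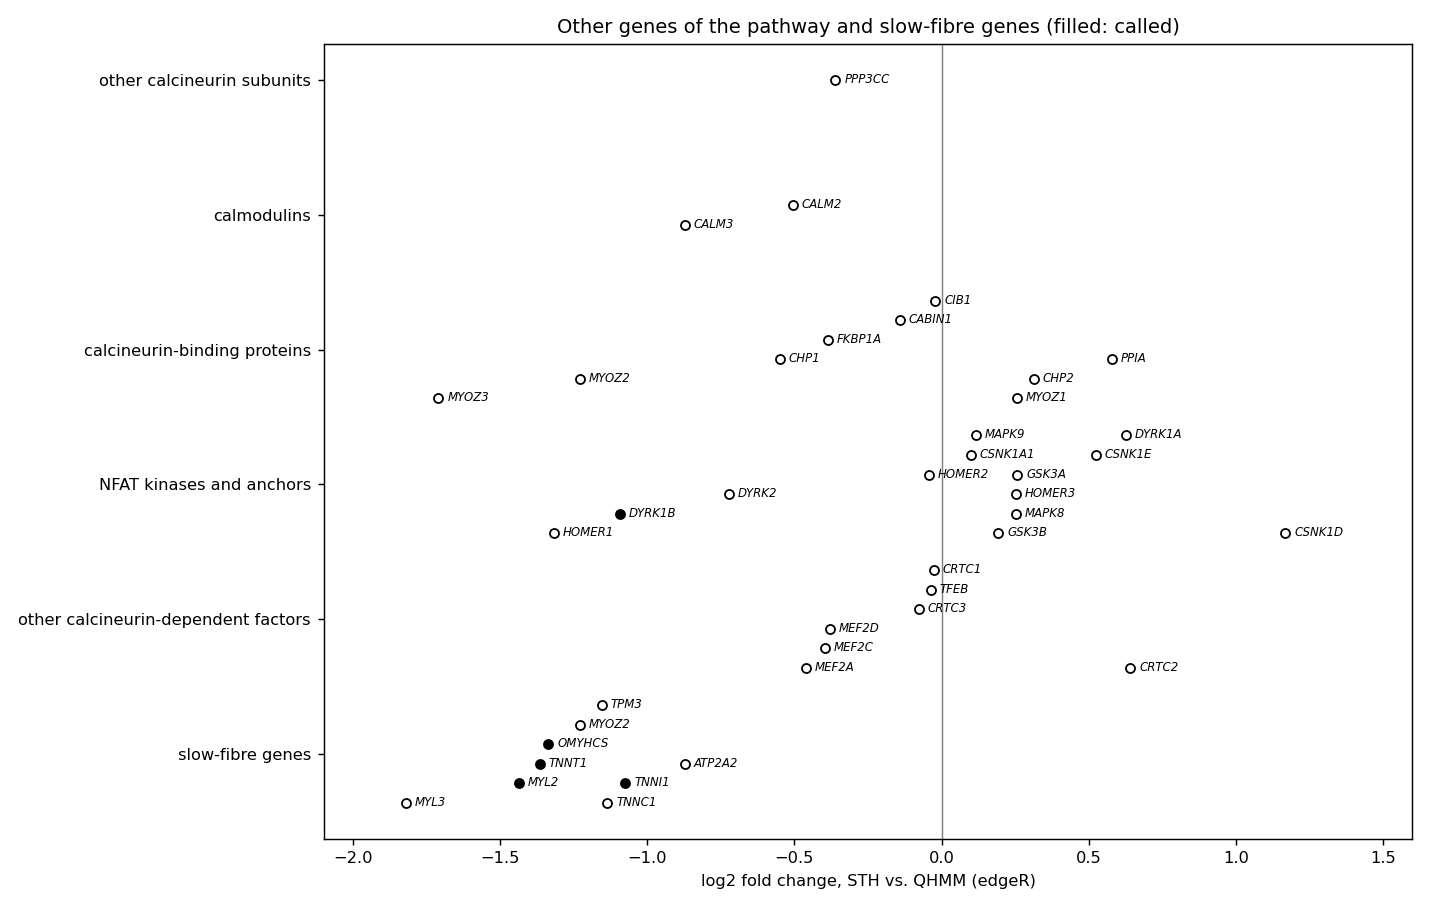
Log2 fold change in STH vs. QHMM (horizontal axis) of tested genes of 5 pathway lists and of the slow-fibre list, with 1 point per gene, set apart vertically only for legibility, and filled points for called genes. DYRK1B at -1.09 is the only filled point among the pathway genes, and all slow-fibre genes lie at -0.87 or lower.

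Slow-fibre genes are a known downstream programme of calcineurin and NFAT. The list was drawn up with earlier results of these samples known, so its direction is not independent evidence. Of 9 tested slow-fibre genes, 4 were called, all lower in STH, where 1.83% of all tested genes were called as lower. The called genes were OMYHCS (the slow myosin heavy chain), MYL2, TNNI1 and TNNT1, and the median of the list was -1.23. With 1 library left out, the number called was 0 without QHMM replicate 1, 2 or 3, 1 without STH replicate 2 and 2 without STH replicate 1 or 3. In the fast-fibre list, 0 of 10 tested genes were called, against 3.45% of all tested genes, and the median was -0.30. Values were negative in 9 of these 10, and 3 had an unadjusted p below 0.05, against 19.2% of all tested genes. These were ACTN3 (-1.02), MYH2 (-0.82) and MYL1 (-0.80). Whether the lower slow-fibre RNA and the calcineurin genes are linked was not tested.

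Markers of other cell types were read beside these values. The adipocyte list had 4 of 5 tested genes called, all lower in STH (ADIPOQ, PLIN1, LEP and CIDEC), where 1.83% of all tested genes were called as lower. The uncalled gene, FABP4, had -0.04 (FDR = 0.980). QHMM replicate 1 had the highest normalized count of its breed for each of these markers, in CIDEC 885 beside 157 and 238. The summed RPKM of the list was 59.2 to 276 in QHMM and 40.3 to 129 in STH. All 9 tested leukocyte markers had negative values, with 0 called. Of these, 3 (CD2, CD4 and LCP2) had an unadjusted p below 0.05, against 19.2% of all tested genes. The summed RPKM of the leukocyte markers was 15.5 to 26.2 in QHMM and 8.18 to 17.6 in STH. All 6 fibroblast markers were also negative with 0 called, and 3 (COL1A1, COL1A2 and COL3A1) had an unadjusted p below 0.05. Their sums were 504 to 1005 in QHMM and 297 to 608 in STH. Endothelial markers had 4 of 6 positive values, 1 unadjusted p below 0.05 and 0 called (sums of 133 to 174 and 136 to 227). Smooth muscle markers had 4 of 5 positive values, 0 unadjusted p below 0.05 and 0 called (108 to 294 and 166 to 302). Beside the 0 called in the leukocyte, fibroblast, endothelial and smooth muscle lists, 3.45% of all tested genes were called. No defining marker of these 5 lists was at or under 3 reads in every library. The part of these cell types in the values of the calcineurin, NFAT and RCAN genes was not tested.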

How the data were processed

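Counts on 23144 genes were deposited for 6 libraries. Per the labels and methods, poly(A) RNA was sequenced on an Ion Proton and placed on the Oar 3.1 build, and the authors deposited raw counts of uniquely mapped reads per gene. The deposited RPKM are these counts divided by gene length and by the library total on genes. The aligner, the counter, the annotation release and the use of strand are not given in the sources used here, so reads of overlapping and antisense genes cannot be told apart. All 12 columns were used. The RefSeq assembly differs from the build of the files, so no coordinates are given, and sequences were not used here.

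Counts were tested in R 4.3.3 with edgeR 4.0.16 (TMM, filterByExpr, glmQLFit and glmQLFTest, breed as the only term), with Benjamini-Hochberg adjustment over 12506 genes. Normalized counts are scaled to the median library total, and the SE is the log2 fold change divided by the root of F. In the RPKM table, 25 gene names had become dates and were left out. RPKM ratios were tested by exact permutation and adjusted over the 5 ratios. The methods were run on counts simulated from the fitted model, which gives no measure of their power for differences of the size seen here. EBSeq, the program of the study, was not installed.

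Named genes are the 10 genes, called members of the pathway lists, and the 3 nearest profiles (prior count of 2) of PPP3CB, PPP3R1 and RCAN1. Uncalled list genes were named after their values were seen. The genes and lists were chosen with earlier results of these data known. List genes were matched by symbol, by NCBI gene ID or, for 4 names, by the protein match given in the count table. Alternatives were DESeq2 1.42.0, upper-quartile scaling, other filters, a replicate block, leaving out the 20 most abundant genes, limma 3.58.1 on log2 RPKM, and each library left out. Scaling by totals alone and RPKM divided by TMM factors were added after the data were seen. Plots used Python 3.11.15 with matplotlib 3.10.9. A result for 1 gene of the lists is not reported here.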

Additional observations from a re-analysis of the deposited data

How the results depend on the processing

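The number of called genes among the 10 was 0 in 16 of 17 alternatives, 6 of which left out 1 library, and 2 with DESeq2. Of the log2 fold changes of the 10 genes, 156 values kept direction and call, 2 gained a call and 8 changed sign, all 8 in NFATC2 and NFATC4. NFATC4 was 0.016 with limma-trend on log2(RPKM + 1), with or without a filter, 0.013 with log2(RPKM + 0.1), 0.058 with library totals alone, and -0.30 to 0.12 with 1 library left out (0.084 without QHMM replicate 3, 0.12 without STH replicate 2). NFATC2 was -0.61 to 0.096 with 1 library left out (0.0086 without QHMM replicate 2, 0.096 without STH replicate 2). The number with an unadjusted p below 0.05 was 3 with limma-trend on log2(RPKM + 1), log2(RPKM + 0.1) or library totals alone, 2 with log2(RPKM + 1) without a filter, and 3 to 5 with 1 library left out. Over all genes, 975 were called with DESeq2, 806 with no filter on low counts, 78 with unfiltered log2(RPKM + 1), 250 with library totals alone, and 131 to 535 with 1 library left out (131 without QHMM replicate 1, 208 without QHMM replicate 2, 150 without QHMM replicate 3 and 183 without STH replicate 2).

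In the pathway lists the number called, 1 in the main test, was 5 with DESeq2, 4 without a filter, 2 with the replicate block, 2 with either filtered RPKM, 0 with unfiltered RPKM and 0 to 2 with 1 library left out. Of the slow-fibre genes, 8 were called with DESeq2, 7 without a filter, 2 with library totals alone, 0 with unfiltered RPKM and 0 to 2 with 1 library left out. Of the fast-fibre and marker genes (4 in the main test), 9 were called with DESeq2, 9 without a filter, 8 with the replicate block, 2 with either filtered RPKM or library totals alone, 0 with unfiltered RPKM and 1 to 5 with 1 library left out. The cause of these shifts was not tested. Without composition factors, the median log2 fold change of all genes was 0.14 (library totals) and 0.12 (log2(RPKM + 1)), and 158 genes were called up and 92 down, or 212 up and 134 down, beside 203 up and 229 down. The log2 difference of PPP3R1/(PPP3CA + PPP3CB) was -0.28 to 0.23 with 1 library left out, with 0.052 without QHMM replicate 2 and 0.23 without STH replicate 1. The other 4 ratios kept their direction.

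The labels name no pairing of samples by replicate number. Deviations of same-numbered libraries had r = 0.23, -0.038 and -0.13 across genes, and not every library was closest to its own number. The replicate block called 457 genes in all, 0 of the 10 and 4 slow-fibre genes. NFATC2, NFATC4, RCAN2 and RCAN3 had 112 to 289 reads each over 6 libraries, and counting error alone gives a CV of 14.4% to 23.1% at their mean raw counts. RCAN3 had no value with filtered RPKM or at least 10 counts in every library.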
